A study of Mus musculus with 4 samples.

Results

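Genes of lipid storage and lipid entry, 10 in all, were followed across 4 microarrays of mouse liver: Plin2, Plin4, Plin5, Cidec, Cideb, Mogat1, Lipe, Pnpla2, Cd36 and Mfsd2a. They were taken by name from the 19505 genes with a probe set of a single symbol, and all 10 of 10 were found. Each had 1 probe set. Every array held liver RNA pooled from 4 male mice of the C57BL6J background, aged 10 to 12 weeks at injection, and each group was 1 array. Control liver came from littermates given AAV8-TBG-Null, an adeno-associated virus of serotype 8 whose hepatocyte-directed TBG promoter drives no transgene, and was labelled Wild type. Knockdown liver came from MCUloxp/loxp mice given AAV8-TBG-Cre, so hepatocytes were the cells targeted and the other cells of the liver were not. That genotype is the one in the treatment protocol; the genotype label of the knockdown arrays names another floxed gene, and the titles and the protocol were followed. Both genotypes were sampled at 0 h and 30 h after surgery that removed 70% of the liver, 5 weeks after the injection. All 4 groups had thus received the virus, and no group had surgery without removal of tissue, so loss of liver cannot be told apart from the operation or the hour of sampling.

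Lipid droplets store triacylglycerol under a coat of perilipins, and CIDE proteins join small droplets into larger ones. Fatty acids enter the droplet through acyltransferases and leave it through lipases, of which ATGL takes the first fatty acid and hormone-sensitive lipase the next. The regenerating liver is known to fill with lipid for a time after hepatectomy, drawing fatty acids from the blood before hepatocytes divide.

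The values are log2 expression from RMA, a normalization that brings the arrays towards a common distribution, so a change common to all genes would not be seen. The deposited arrays were still not fully equal, with medians between 3.75 and 3.84, and values after 3 further scalings are given beside the results that turn on them. Each group was 1 array, so the differences have no replicate spread behind them, and neither errors nor tests are given. A difference of 1 on the log2 scale is 2-fold, and that size was used to count genes. Mcu, the uniporter pore and target of the knockdown, read 4.77 (0 h) and 4.30 (30 h) on the control arrays and 2.83 and 2.63 on those of the knockdown. The sample descriptions name ethanol feeding, and 1 of them, for knockdown liver at 30 h, gives another time after surgery than the title; groups follow the titles. The 8 measured hepatocyte markers were all bright, with Alb between 12.6 and 12.7 on every array. In bulk liver, fewer cells of a type and less RNA per cell cannot be told apart. Of the 10 genes, 8 had a mean over the arrays of no less than 3.83, the median over all genes, and Plin4 and Mogat1 lay below it, where folds are understated and noise is larger.

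After hepatectomy 1 gene stood far out in both genotypes, the lysophospholipid transporter Mfsd2a, which was 11.0-fold higher in control and 18.1-fold higher in knockdown liver. Cd36, the fatty acid translocase, was 2.28-fold higher in control liver and 1.10-fold higher in knockdown liver. None of the other 8 genes reached 2-fold in either genotype. The bases before the RefSeq start sites of these 2 genes are shown because they carry the largest differences, with capitals marking the searched motifs found there. The windows are 250 bases on assembly GRCm38.p6, 5′ to 3′ on the gene's strand, at chr4:122961189-122961438 (minus strand) for Mfsd2a and at chr5:17835897-17836146 (minus strand) for Cd36.
Mfsd2a: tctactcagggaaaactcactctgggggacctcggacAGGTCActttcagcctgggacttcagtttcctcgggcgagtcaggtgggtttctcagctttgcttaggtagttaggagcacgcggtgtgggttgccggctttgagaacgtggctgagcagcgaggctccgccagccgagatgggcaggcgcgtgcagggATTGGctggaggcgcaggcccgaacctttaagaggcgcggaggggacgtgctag
Cd36: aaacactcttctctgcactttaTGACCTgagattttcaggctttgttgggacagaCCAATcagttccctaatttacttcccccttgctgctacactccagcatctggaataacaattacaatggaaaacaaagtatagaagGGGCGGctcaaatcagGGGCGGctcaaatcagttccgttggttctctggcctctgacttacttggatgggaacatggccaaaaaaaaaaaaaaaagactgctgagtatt
The motifs searched on both strands were the nuclear receptor half-site AGGTCA, the direct repeat of AGGNCA with 1 base between the copies (DR1), to which PPAR and HNF4 factors are known to bind, the E-box CACGTG, the CCAAT box CCAAT, the GC box GGGCGG and the TATA box TATAAA. DR1 contains half-sites, so its matches may overlap theirs. Mfsd2a had AGGTCA from position -213 and, on the other strand, a CCAAT box from -54, counted from the start site. Cd36 had AGGTCA on the other strand from -228, a CCAAT box from -195, and GC boxes from -109 and -93. AGGTCA occurred in 14.0% of all 32851 windows of that length, CCAAT in 33.8% and GGGCGG in 32.7%. Among the 10 genes, 4 had AGGTCA in some window (Plin2 and Plin5 besides these), 5 a CCAAT box, 5 a GC box, 1 an E-box (Lipe, 6.02% of all windows), 1 a TATA box (Cideb, 12.4%) and 0 the DR1 repeat (0.338%). The 10 genes had 13 windows, and 7 of the genes had 1 each. The counts are of genes and the percentages of single windows, so a gene with more windows had more chances of a match. The motifs are matches of letters, with no binding measured.

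**Figure D1:**
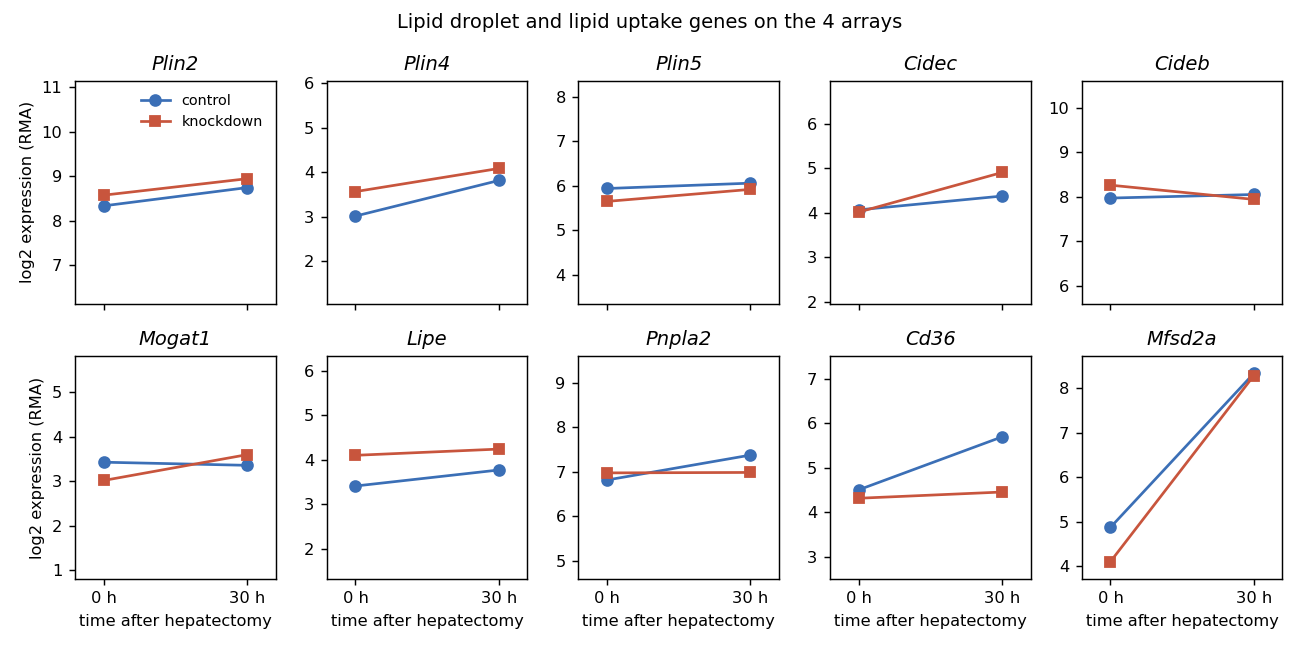
Log2 expression (vertical axis, each panel spanning the same number of log2 units) at 0 h and 30 h after hepatectomy for each of the 10 genes, 1 panel per gene. Circles are control and squares knockdown liver, each point 1 array; Mfsd2a has the steepest lines, and the lines of Cd36 part at 30 h.

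The first comparison asked what these genes did in control liver between 0 h and 30 h. Of the 10, 2 were at least 2-fold higher, against 4.19% of all genes, and 0 at least 2-fold lower, against 2.22%. In all 9 were higher by any amount, where 49.0% of all genes and 58.2% of the brighter ones were, and their median difference was 0.385 against -0.01 over all genes. Part of that count turned with the scaling: after quantile normalization 7 of 10 were higher, as Plin5 (-0.07) and Cideb (-0.19) then joined Mogat1 (-0.01) below 0.

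Among the droplet coat genes, Plin2, the perilipin that coats droplets in most cells and is abundant in fatty liver, read 8.34 in control liver at 0 h, 8.75 at 30 h, and 8.58 and 8.95 in the knockdown. Both 30 h arrays were above both 0 h arrays, by 0.41 in control and 0.37 in knockdown liver. Plin4, a perilipin best known from adipocytes, read 3.02 and 3.82 in control and 3.57 and 4.09 in knockdown liver. It too was higher on both 30 h arrays, by 0.80 and 0.52, on a dim probe set. Plin5, which tethers droplets to mitochondria, read 5.94 and 6.06 in control and 5.65 and 5.92 in knockdown liver, differences of 0.12 and 0.27. The 3 perilipins thus had positive responses in both genotypes, of which that of Plin5 in control liver became -0.07 after quantile normalization and -0.03 after cyclic loess. Plin2 in control liver also came down, to 0.11 after quantile normalization and 0.18 after cyclic loess. After quantile normalization its control 30 h array lay below its knockdown 0 h array, which was 0.13 above control at 0 h. Plin4 and Plin5 lie next to each other on chromosome 17, with no other protein-coding gene between them in the RefSeq annotation.

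Both CIDE genes were measured. Cidec, which drives droplet fusion and growth, read 4.07 and 4.38 in control and 4.02 and 4.91 in knockdown liver. The 0 h arrays were close to each other and the knockdown 30 h array was the highest, so the response was 0.31 in control and 0.89 in knockdown liver, the latter 1.85-fold. Cideb, the CIDE protein of hepatocytes that also serves lipoprotein loading, read 7.97 and 8.05 in control and 8.26 and 7.94 in knockdown liver. Its range over the 4 arrays, 0.32, was the narrowest of the 10 genes and below the median range over all genes (0.61).

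Of the enzymes, Mogat1, an acyltransferase that makes diacylglycerol, read 3.43 and 3.36 in control and 3.02 and 3.60 in knockdown liver. It was nearly level in control liver and higher by 0.58 in knockdown liver, on a dim probe set. Lipe, which encodes hormone-sensitive lipase, read 3.41 and 3.77 in control and 4.10 and 4.24 in knockdown liver. Both knockdown arrays were above both control arrays, and the responses were 0.36 and 0.14. The mean of Lipe, 3.88, was just above the median over all genes, 3.83, and both control values lay below that median. Pnpla2, which encodes ATGL, read 6.81 and 7.37 in control and 6.97 and 6.98 in knockdown liver. The control 30 h array stood above the other 3, a response of 0.56 in control and 0.01 in knockdown liver. The control response came down to 0.32 after quantile normalization and 0.34 after cyclic loess.

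Of the transporters, Mfsd2a, which carries lysophosphatidylcholine with docosahexaenoic acid into cells and is known to be induced in fasted liver, read 4.87 and 8.33 in control and 4.10 and 8.28 in knockdown liver. The 30 h values nearly met while the 0 h values lay apart. Its response of 3.46 in control liver was the 17th highest of 19505 genes and that of 4.18 in knockdown liver the 7th highest. Cd36, which takes up long-chain fatty acids and is also expressed by macrophages and endothelial cells, read 4.50 and 5.69 in control and 4.31 and 4.45 in knockdown liver. The control 30 h array stood alone above the other 3, whose values spanned 0.19. The response of 1.19 in control liver ranked 505th from the top.

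**Figure D2:**
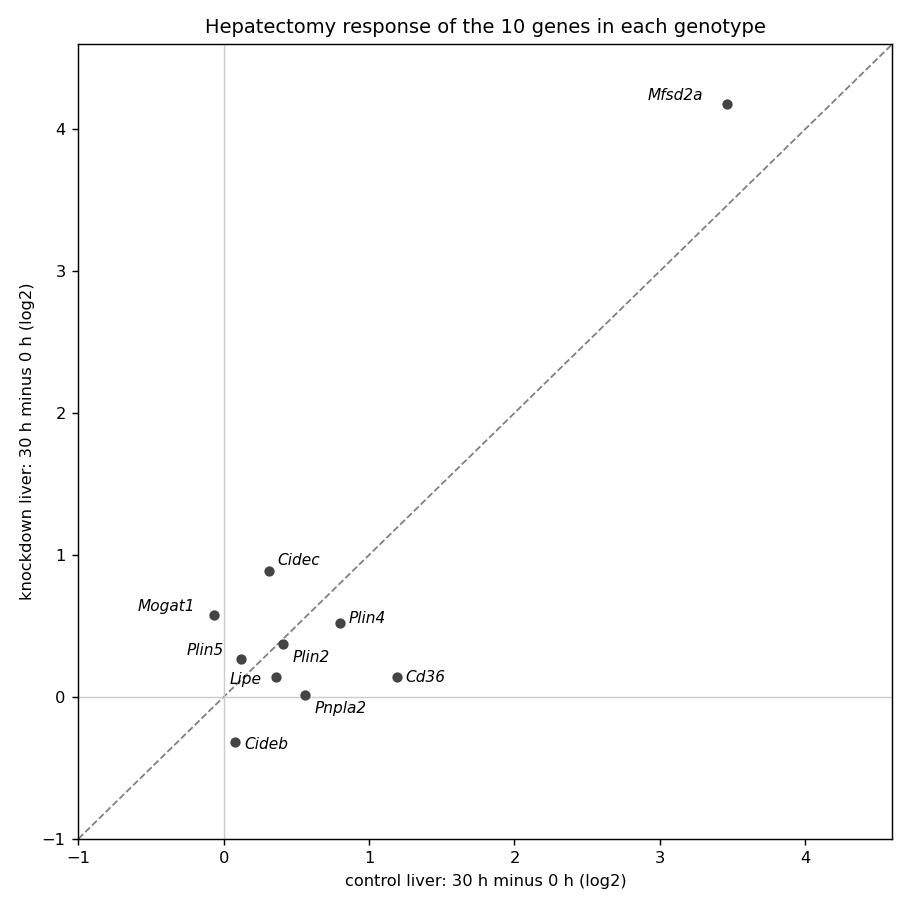
Log2 difference of 30 h minus 0 h in control liver (horizontal axis) against the same in knockdown liver (vertical axis) for the 10 genes, each point 1 gene, with a dashed line of equal response. Mfsd2a lies far from the rest at 3.46 and 4.18, Cd36 lies below the line at 1.19 and 0.14, and Cidec and Mogat1 lie above it.

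In knockdown liver the comparison of 30 h with 0 h gave 1 of the 10 genes, Mfsd2a, at least 2-fold higher, against 2.72% of all genes, and 0 at least 2-fold lower, against 2.01%. Cidec came next with 0.89, then Mogat1 with 0.58 and Plin4 with 0.52. Higher by any amount were 9 of 10, against 50.2% of all genes and 46.2% of the brighter ones, with a median of 0.32 against 0.01. Cideb was the exception, with -0.32. After median centring 8 of 10 were higher, as Pnpla2 turned from 0.01 to -0.04.

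The genotypes were next compared before surgery. At 0 h, 0 of 10 were 2-fold apart in either direction, where the knockdown was at least 2-fold higher in 1.45% and lower in 1.25% of all genes. With 2.70% of all genes past 2-fold either way, a count of 0 of 10 is near that share. Mfsd2a was 1.71-fold lower in the knockdown (-0.77, the 660th lowest gene), and Lipe was 1.61-fold higher (0.69, the 969th highest). Plin4 was higher by 0.55, Cideb by 0.29, Plin2 by 0.24 and Pnpla2 by 0.16. Mogat1 lay at -0.41, Plin5 at -0.29, Cd36 at -0.19 and Cidec at -0.05, so 5 of 10 were higher, against 51.0% of all genes. All 10 lay inside the central 95% of all genes, -0.84 to 0.86, while Mfsd2a lay just outside that of the brighter genes, -0.71 to 0.84.

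At 30 h, Cd36 was 2.36-fold lower in knockdown than in control liver (-1.24), the 135th lowest of 19505 genes. It was 1 of 10 at least 2-fold lower, against 1.86% of all genes, and 0 were at least 2-fold higher, against 2.07%. By any amount 5 of 10 were higher, against 49.2%. The difference held its size after quantile normalization, cyclic loess and median centring, between -1.33 and -1.17. Cidec was higher in the knockdown by 0.53, Lipe by 0.47, Plin4 by 0.27, Mogat1 by 0.24 (0.09 after cyclic loess) and Plin2 by 0.20. Pnpla2 lay at -0.39 (-0.21 after quantile normalization and after cyclic loess), Plin5 at -0.14, Cideb at -0.11 and Mfsd2a at -0.05, and the last 3 changed sign after quantile normalization and cyclic loess. Plin2, Plin4 and Lipe were higher in the knockdown at both times, here and under each of the 3 scalings, and Cideb joined them after quantile normalization and cyclic loess.

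**Figure D3:**
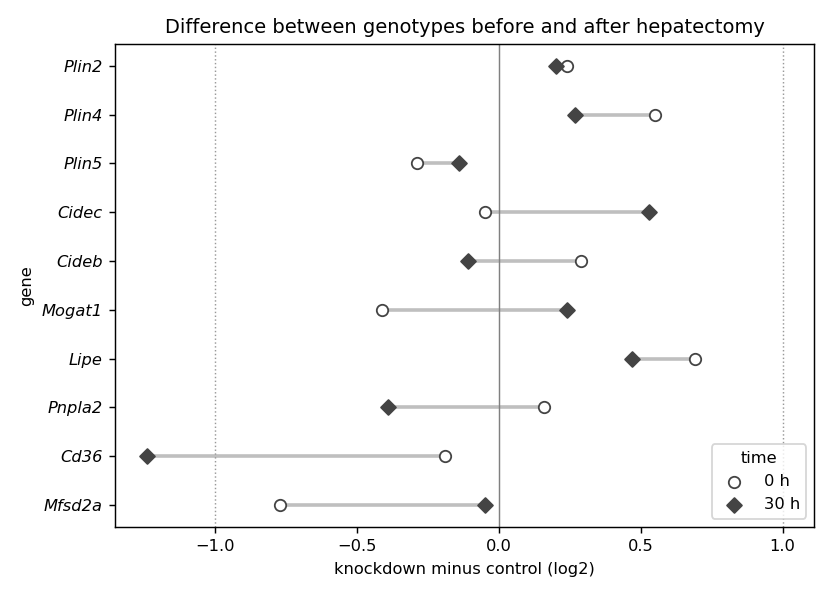
Log2 difference of knockdown minus control (horizontal axis) for each of the 10 genes, at 0 h (open circles) and 30 h (filled diamonds), with dotted lines at 2-fold. Cd36 at 30 h, at -1.24, is the only point past a dotted line; Mfsd2a moves from -0.77 at 0 h to -0.05 at 30 h.

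The response in the knockdown minus the response in control uses all 4 arrays, and it shares them with the comparisons above. Cd36 alone passed 2-fold, with -1.05, so 1 of 10 was past 2-fold in either direction, against 11.8% of all genes. The Cd36 value came under 2-fold after quantile normalization (-0.95) and cyclic loess (-0.98). Mfsd2a followed with 0.72, Mogat1 with 0.65, Cidec with 0.58, Pnpla2 with -0.55 and Cideb with -0.40. The last 2 came down to -0.28 and -0.14 after quantile normalization and to -0.27 and -0.13 after cyclic loess. In all 4 of 10 were above 0, against 48.3% of all genes. Plin4 had -0.28, Lipe -0.22, Plin5 0.15 and Plin2 -0.04. After quantile normalization and cyclic loess Plin5 rose to 0.39 and 0.37 and Plin2 turned to 0.18 and 0.21, so the order of the smaller differences depended on the scaling. All 10 lay inside the central 95% of all genes, -1.26 to 1.29.

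Markers of non-hepatocyte cells that can express Cd36 are given beside it, and their part in its difference was not tested. The 10 Kupffer cell markers had mean log2 levels of 5.15 (0 h) and 5.78 (30 h) in control liver and of 5.54 and 5.47 in knockdown liver. At 30 h, 8 of 10 were lower in the knockdown, with a median of -0.27, and none by 2-fold. All 10 were bright, and 61.2% of the brighter genes were lower in that comparison. After quantile normalization and cyclic loess 6 of 10 Kupffer markers were lower, with a median of -0.11 under both. The 10 sinusoidal endothelial markers had mean levels of 4.77, 4.78, 5.08 and 4.49 in the same order. At 30 h, 7 of 10 were lower and 1 equal, with a median of -0.30, where 49.8% of all genes were lower. Most of these markers were bright, and among all brighter genes 61.2% were lower. Stab2 (-1.25) was at least 2-fold lower, 1 of 10 against 1.86% of all genes. Lyve1 (0.88) and Kdr (0.16) were higher in the knockdown. After quantile normalization and cyclic loess 7 of 10 endothelial markers were lower, with medians of -0.33 and -0.34. For Plin4, Lipe and Cidec, which adipocytes also express, 7 of 9 adipocyte markers had a probe set, and 5 of these were dim. Among them Adipoq, the defining adipokine, read 2.43, 2.15, 1.83 and 2.49, and Lep 1.91, 2.13, 2.59 and 2.55. Of the 7 markers, 2 were higher in the knockdown at 0 h, with a median of -0.16, against 51.0% of all genes. At 30 h, 5 of 7 were higher, with a median of 0.32, against 49.2% of all genes. The mean of the 7 was 3.16, 3.16, 3.07 and 3.43, and their part in the values of Plin4, Lipe and Cidec was not tested.

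Of the 10 genes, 3 had a range over the 4 arrays of at least 1, as 16.0% of all genes did. For these, the genes with the closest profiles were found by the Euclidean distance of mean-centred log2 values over the 4 arrays. For Mfsd2a these were the acute phase genes Orm2 (distance 0.17) and Saa1 (0.55) and the metallothionein Mt1 (0.57). Orm2 read 7.77, 11.3, 7.08 and 11.4, so it shared with Mfsd2a the lower 0 h value in the knockdown and the close 30 h values. For Cd36 they were the condensin subunit Smc2 (0.13), the DNA polymerase Polk (0.13) and the mitotic cyclin Ccnb2 (0.15). Ccnb2 read 4.82, 6.14, 4.55 and 4.77, high on the control 30 h array alone. For Plin4 they were Arpc1a, a subunit of the actin-nucleating Arp2/3 complex (0.01), the autophagy protease Atg4d (0.09) and the transcription factor Egr4 (0.09). With 4 points per profile and 9452 genes searched, close neighbours can be found for many profiles.

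The other genes of lipid handling were read from 7 lists of 99 genes, of which 91 had a probe set. In control liver 6 of the 91 were at least 2-fold higher at 30 h and 1 lower, against 4.19% and 2.22% of all genes. In knockdown liver 9 were higher and 4 lower, against 2.72% and 2.01%. Between genotypes 2 were at least 2-fold higher and 1 lower at 0 h, against 1.45% and 1.25% of all genes. At 30 h, 0 were higher and 1 lower, against 2.07% and 1.86%. Counts of the single lists are to be read against the same percentages.

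The lists nearest in function were the other droplet proteins and the lipolysis genes. Of 13 other droplet proteins, 0 were 2-fold apart after hepatectomy in control liver. Pcyt1a, the rate-limiting enzyme of phosphatidylcholine synthesis, was lower at 30 h than at 0 h in knockdown liver (-1.38), on a dim probe set. At 30 h it was 2.03-fold lower in knockdown than in control liver (-1.02). The differences of response reached -1.93 for Pcyt1a and -1.18 for Ldah, a droplet-associated hydrolase. That of Ldah came under 2-fold after quantile normalization (-0.98) and cyclic loess (-0.96). Of the 13, 2 had a difference of responses above 0, against 48.3% of all genes and 36.1% of the brighter ones. The list's median, -0.20, became 0.005 and 0.0135 after these 2 scalings, with 7 of 13 above 0 under both. Of 9 other lipolysis genes, the carboxylesterase Ces1d, a hydrolase of stored triacylglycerol, was lower at 30 h in control liver (-1.05). That was 1 of 9 against 2.22% of all genes, and Ces1d was also lower at 30 h in knockdown liver (-0.71). The deacetylase Aadac (-1.06) and the carboxylesterase Ces1g (-1.23) were lower at 30 h in knockdown liver, 2 of 9 against 2.01% of all genes. Their responses in control liver were -0.71 and -0.22. The differences of responses of Ces1d and Aadac were 0.34 and -0.35. Ces1g was 2.45-fold higher in knockdown than in control liver at 0 h (1.29), 1 of 9 against 1.45% of all genes. Its difference of responses was -1.01, under 2-fold after quantile normalization (-0.76) and cyclic loess (-0.75). Ces1 genes are close copies of each other, so these values are uncertain.

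The triacylglycerol synthesis and uptake genes were read next. Gpat3, which starts glycerolipid assembly, was the one of 13 synthesis genes at least 2-fold apart. It was higher by 1.10 at 30 h in knockdown liver, 1 of 13 against 2.72% of all genes, and by 0.06 in control liver. Its difference of responses was also past 2-fold, 1 of 13 against 11.8% of all genes, and came under 2-fold after median centring. Dgat1 and Dgat2, which add the last fatty acid, had responses of -0.60 and 0.02 in control and -0.61 and -0.06 in knockdown liver. Among 18 other uptake genes, Fabp4, a fatty acid binding protein of adipocytes, macrophages and endothelium, read 5.24 and 6.29 in control and 5.12 and 6.50 in knockdown liver. It was higher at 30 h by 1.05 and 1.38, so both of its 30 h arrays were high where Cd36 was high on the control array alone. Past 2-fold it was 1 of 18 in each genotype, against 4.19% of all genes in control and 2.72% in knockdown liver. The control response of Fabp4 came under 2-fold after quantile normalization (0.87) and cyclic loess (0.91). Gpihbp1, which holds lipoprotein lipase on endothelium, was higher in the knockdown at 0 h by 1.03, and by 0.99 after cyclic loess. At 1.03 it was 1 of 18, against 1.45% of all genes.

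Of 10 genes of VLDL assembly, the apolipoprotein Apoa4 read 9.08 and 11.7 in control and 8.59 and 11.6 in knockdown liver, responses of 2.64 and 3.04. Tm6sf2, which aids the lipidation of VLDL, was higher at 30 h by 1.29 and 1.08. The median of the list was 0.12 in control liver, -0.04 there after quantile normalization, and 0.04 in knockdown liver. Apoa4 and Mfsd2a were alike in that both were lower in the knockdown at 0 h (-0.49 and -0.77) and close to control at 30 h (-0.09 and -0.05).

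Of 19 PPAR factors and PPAR-alpha targets, 17 were lower and 1 higher in knockdown than in control liver at 30 h, where 49.8% of all genes were lower. Most of the list was bright (18 of 19), and among all brighter genes 61.2% were lower. Their median was -0.31 against 0.00 over all genes, none was 2-fold apart, and after quantile normalization and cyclic loess 15 were lower, with medians of -0.15 and -0.18. Ppargc1a, a coactivator of oxidative metabolism, was higher at 30 h in both genotypes (1.77 and 1.43). Cyp4a14, a fatty acid hydroxylase, was lower in the knockdown before surgery (-1.07) and still lower 30 h after it (-0.89). Its response was 1.07 in knockdown and 0.89 in control liver, a difference of 0.18. Acaa1b, a peroxisomal thiolase, was lower at 30 h than at 0 h in knockdown (-1.20) and in control liver (-0.70). Its difference between genotypes at 30 h was -0.19. Slc25a20, the carnitine carrier of mitochondria, had a difference of responses of -1.07, which was -0.82 after quantile normalization and -0.80 after cyclic loess. Pparg, the PPAR known to raise Cidec, Mogat1 and Cd36 in fatty liver, read 4.58 and 4.35 in control and 3.83 and 3.78 in knockdown liver.

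Of 9 fasting and glucocorticoid response genes, 8 were higher at 30 h in control and 6 in knockdown liver, with medians of 0.83 and 0.58. Higher at 30 h were 49.0% of all genes in control and 50.2% in knockdown liver, and 58.2% and 46.2% of the brighter genes, to which all 9 belong. Fkbp5, a glucocorticoid receptor target, was higher by 1.77 and 1.21, and Cebpd, a factor of the acute phase, by 1.41 and 1.01, the latter 0.96 after median centring. Tsc22d3 of the same list went the other way, with -0.08 in control and -0.97 in knockdown liver. Igfbp1, which binds insulin-like growth factors, was higher by 1.53 in knockdown and 0.81 in control liver. The glucose phosphatase G6pc (-1.19) and the kinase Sgk1 (-1.01) had differences of responses past 2-fold, with lower responses in the knockdown. Both came under 2-fold after quantile normalization (-0.97 and -0.84) and cyclic loess (-0.94 and -0.82).

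**Figure D4:**
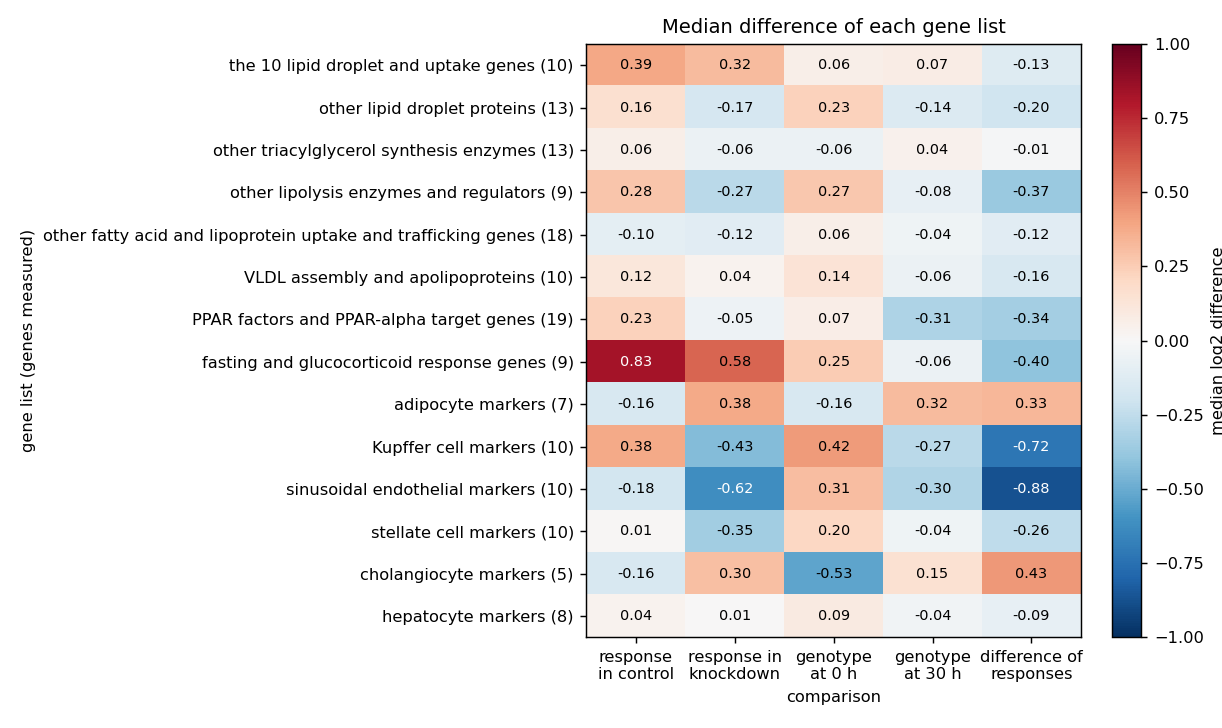
Median log2 difference on the deposited scale (colour and printed value) of each gene list (rows, with the number of genes measured) in the 5 comparisons (columns). The fasting and glucocorticoid list has the highest medians after hepatectomy, 0.83 and 0.58, and the endothelial and Kupffer lists the lowest differences of responses, -0.88 and -0.72.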

How the data were processed

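Liver RNA pools of 4 animals were measured on 4 arrays; per the labels' protocols, cDNA was made with the WT Plus kit. The authors deposited log2 values per probe set. According to the submitters' processing notes these came from RMA and Affymetrix Expression Console, with versions, settings and build not given in the sources used here. Of 22206 probe sets, 19572 had 1 gene symbol and none several; the 2634 without a name were left aside. All 19572 have an Entrez ID in the RefSeq annotation of GRCm38.p6. The brightest probe set by mean stood for each of 19505 genes. Array medians lay between 3.75 and 3.84, and r between arrays, across probe sets, ran from 0.953 to 0.974. Precision is limited by the number of arrays.

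Differences of log2 values were taken in 5 comparisons and counted at 2-fold over all genes, with Python 3.11.15 and pandas 2.3.3; the counting was tested on simulated data. No test was run. The alternatives were median centring, quantile normalization and cyclic loess with limma 3.58.1 in R 4.3.3, thresholds of 1.5-fold and 3-fold, a filter on dim genes, and averaging over probe sets. The 10 genes and the lists were chosen with earlier results of these data known. The text names all 10 genes, up to 3 genes a list and comparison among those 2-fold apart, and the 3 closest profiles (predicted genes left out). Dgat1, Dgat2, Pparg, Tsc22d3, Adipoq, Lep, Alb, Stab2, Lyve1 and Kdr were named besides. Genes absent from the probe table were not analysed here, and 1 entry of the labels has been left out.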

Additional observations from a re-analysis of the deposited data

Results flagged for a closer look

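Some genes had responses to hepatectomy of opposite sign in the genotypes, or differences between genotypes of opposite sign at the 2 times. With 1 array per group, these differences were not tested. Over all genes, 44.6% had responses of opposite sign and 50.8% had genotype differences of opposite sign, so such signs are common. Cideb had a response of 0.08 in control and -0.32 in knockdown liver, and differed between genotypes by 0.29 at 0 h and -0.11 at 30 h, a difference of -0.40. Mogat1 had responses of -0.07 and 0.58 and genotype differences of -0.41 and 0.24, a difference of 0.65. Cidec differed between genotypes by -0.05 at 0 h and 0.53 at 30 h, a difference of 0.58. Pnpla2 differed by 0.16 and -0.39, a difference of -0.55. After quantile normalization and cyclic loess the values for Cideb no longer had opposite signs, with control responses of -0.19 and -0.16 and genotype differences at 30 h of 0.05 and 0.04, and its difference came down to -0.14 and -0.13. For Pnpla2 the 30 h value was -0.21 under both and the difference -0.28 and -0.27. The signs of Cidec held under both, and the control response of Mogat1 was 0.03 after cyclic loess.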

How the results depend on the processing

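No paired analysis was possible because each group had 1 array, and for the same reason no replicate could be left out. The count of the 10 genes past the threshold moved by over 1.5 times as follows. At 1.5-fold it was 2 in the knockdown response, 2 between genotypes at 0 h and 3 in the difference of responses. At 3-fold it was 1 in the control response, 0 between genotypes at 30 h and 0 in the difference of responses. In that last comparison it was also 0 after quantile normalization and 0 after cyclic loess, as Cd36 came under 2-fold. The median of the 10 genes moved by 0.15 or more in 2 cases, to -0.08 between genotypes at 30 h over the 8 brighter genes and to 0.0396 in the difference of responses after cyclic loess. The other 50 counts and medians held, and no difference past 2-fold changed sign under the alternatives run. Of 50 differences of single genes, 8 changed sign under at least 1 of the 3 scalings, and the largest shift was 0.30, of Plin2 in control liver after quantile normalization. The mean of probe sets changed none of the 10 genes, which have 1 probe set each. Some medians of the other lists, such as those of the VLDL and droplet lists in control liver, also changed sign. No detection call was used, so dim values cannot be told from background.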
